A study of Homo sapiens with 4 samples.

Results

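The genes described here encode 10 enzymes of glycolysis and lactate formation: GPI, ALDOA, TPI1, GAPDH, PGK1, PGAM1, ENO1, PKM, LDHA and LDHB. They were picked by gene name, and all 10 were among the 16174 genes of the deposited table. All 10 passed the filter, a mean over the libraries of 1 TPM or more (TPM is a length-scaled share of a library's reads), as did 8274 genes in all. The cells were H9, a widely used human embryonic stem cell line in the primed state, grown in mTeSR1 medium on Geltrex. Every group carried a doxycycline-inducible dCas9-BFP-KRAB, a repressor of transcription that is directed to a promoter by a guide RNA, delivered by piggyBac transposase and kept by puromycin selection. The SNHG26 arm carried 4 pooled guides against the long noncoding RNA SNHG26 and the control arm non-targeting control guides. Each arm gave 1 library after 2 days and 1 library after 3 days of doxycycline, so there were 4 libraries in all. The labels name no separate cultures, and the libraries of an arm differ in day, so the spread within an arm holds any difference between the days.

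Glycolysis splits glucose into pyruvate in the cytosol. GPI, ALDOA and TPI1 rearrange and cleave the sugar phosphates, and GAPDH, PGK1, PGAM1, ENO1 and PKM carry the steps that yield ATP and NADH. Lactate dehydrogenase then turns pyruvate into lactate and restores NAD+: it is a tetramer of LDHA and LDHB subunits, of which LDHA is commonly linked with lactate production and LDHB with lactate use. Primed human pluripotent cells are known for a high glycolytic flux, and several of these genes are known targets of HIF1 and MYC.

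SNHG26 itself was listed at 0 TPM (day 2) and 0.933 TPM (day 3) with its guides, against 2.98 TPM and 4.03 TPM with control guides. In these libraries 1 read on a span of 10 kb equals 0.653 to 0.803 TPM, so the SNHG26 values may rest on few reads. By an approximate upper bound recovered from the values, at most about 1044055 and 1220265 reads stood behind the SNHG26-guide libraries. The control libraries had at most about 947338 and 1135936. The 13 mitochondrially encoded mRNAs made up 7.33% to 9.31% of the listed TPM. Of 10 primed stem cell markers 9 were listed: POU5F1 stood at 1050 to 1212 TPM and SOX2 at 241 to 307 TPM, while ZIC2 was listed at 0. Of 14 markers of differentiated cells 4 were listed, FOXA2 and EOMES at 0, MIXL1 at 1.98 TPM in 1 library only, and NES, which neural progenitors and stem cell cultures both express, at 17.1 to 24.5 TPM.

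Stretches of sequence upstream of LDHA, PGK1 and LDHB are shown because LDHA and PGK1 held the largest differences between days among the 10 genes and LDHB the opposite one. They come from RefSeq on GRCh38.p14, read 5′ to 3′ on the strand of the gene, and hold only bases outside the exons of the gene's own transcripts. Capitals mark ACGTG on either strand, the core of the element that HIF1 is known to bind, or CACGTG, the E-box that contains it and that MYC is known to bind. LDHA has a RefSeq start at each of 2 places, the stretches lying at chr11:18394313-18394387 and chr11:18396101-18396265 on the plus strand. The PGK1 stretch is chrX:78103998-78104173 on the plus strand, and the LDHB stretch is chr12:21657972-21658092 on the minus strand.
LDHA, upstream start: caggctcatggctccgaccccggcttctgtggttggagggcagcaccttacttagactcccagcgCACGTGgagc
LDHA, downstream start: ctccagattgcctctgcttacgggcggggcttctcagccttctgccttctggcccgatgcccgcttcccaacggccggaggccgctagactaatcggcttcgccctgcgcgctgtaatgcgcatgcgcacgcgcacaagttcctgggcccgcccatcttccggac
PGK1: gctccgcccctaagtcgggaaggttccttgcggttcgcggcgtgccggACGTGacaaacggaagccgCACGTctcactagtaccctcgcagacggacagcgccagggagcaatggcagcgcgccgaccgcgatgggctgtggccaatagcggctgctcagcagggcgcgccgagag
LDHB: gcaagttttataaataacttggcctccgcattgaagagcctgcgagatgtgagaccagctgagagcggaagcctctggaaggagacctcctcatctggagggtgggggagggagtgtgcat
The LDHA stretch at the upstream start held 1 site, which was a CACGTG, and the PGK1 stretch held 2 sites of ACGTG. Neither the LDHB stretch nor the LDHA stretch at the downstream start held one. Over the full 250 bases before each RefSeq start, 8 of 14 windows of the 10 genes held ACGTG, belonging to 6 genes, against 18.5% of all 35116 windows. Those genes were ALDOA, GAPDH, GPI, LDHA, PGK1 and TPI1. The 4 genes with none were PGAM1, ENO1, PKM and LDHB. By the day differences given below, ALDOA, GAPDH, LDHA and PGK1, higher on day 3, held the motif. GPI and TPI1, with overlapping days, held it as well. PGAM1, PKM and ENO1, higher on day 3, did not, nor did LDHB, lower on day 3. The windows of PGAM1, ENO1, PKM and GPI lay in exons of the gene's own transcripts over all 250 bases. The RefSeq start used for PGAM1 lies 1658 bases from the start of its principal transcript. A link between the motif and the day differences was not tested. CACGTG was in 3 of the 14 windows, against 6.34% of all windows. A match is only a string of letters and no binding was measured.

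The 10 mRNAs spanned a wide range of levels. GAPDH (chromosome 12, 6534512 to 6538374) led with a mean of 12157 TPM over the 4 libraries and ranked 12 among all genes. ALDOA (chromosome 16, 30064164 to 30070457) followed at 1383 TPM, then LDHB (chromosome 12, 21635342 to 21757857) at 733 TPM, PGK1 (chromosome X, 77910739 to 78129295) at 505 TPM and ENO1 (chromosome 1, 8861000 to 8879190) at 435 TPM. The ranges of LDHB and PGK1 overlapped, as did those of PGK1 and ENO1. Below them stood PGAM1 (chromosome 10, 97426191 to 97433444) at 238 TPM, PKM (chromosome 15, 72199029 to 72231819) at 116 TPM and LDHA (chromosome 11, 18394560 to 18408425) at 102 TPM. TPI1 (chromosome 12, 6867119 to 6870948) at 42.6 TPM and GPI (chromosome 19, 34359480 to 34402413) at 39.0 TPM were lowest. PKM overlapped LDHA and TPI1 overlapped GPI, while the other neighbours in this order did not overlap in range over the 4 libraries.

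For 20.6% of genes with a value, the deposited TPM fitted reads divided by the listed genomic length, introns included. Division by such a length lowers long genes against short ones. None of the 10 genes gave whole reads over its listed length, so the length used for them is not known. Reads estimated from the principal transcript and divided by its spliced length gave another order: GAPDH at 4913 reads per kb, LDHB at 1492, ALDOA at 724, ENO1 at 613, PGK1 at 371, PKM at 197, PGAM1 at 136, GPI at 94.9, LDHA at 88.7 and TPI1 at 16.0, each a mean of the 4 libraries. With these estimates GAPDH was first on both scales. TPI1, an enzyme between GAPDH and ALDOA in the pathway, was last per spliced length, with at most 18.4 to 26.4 reads in any library. Its coordinates overlap the opposite-strand gene SPSB2 by 14 bases. The listed PGK1 span of 218557 bases is longer than its principal transcript's 25123 bases and overlaps ATP7A by 139657 bases and PGAM4 by 1690 bases, so its estimated reads are uncertain. The same holds for LDHB, whose listed span of 122516 bases exceeds the 22453 bases of its principal transcript. Its reads could lie anywhere below 10516 to 13649 in a library, against 5087 to 8875 for GAPDH, so the order of LDHB and GAPDH per spliced length rests on the estimate.

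**Figure D1:**
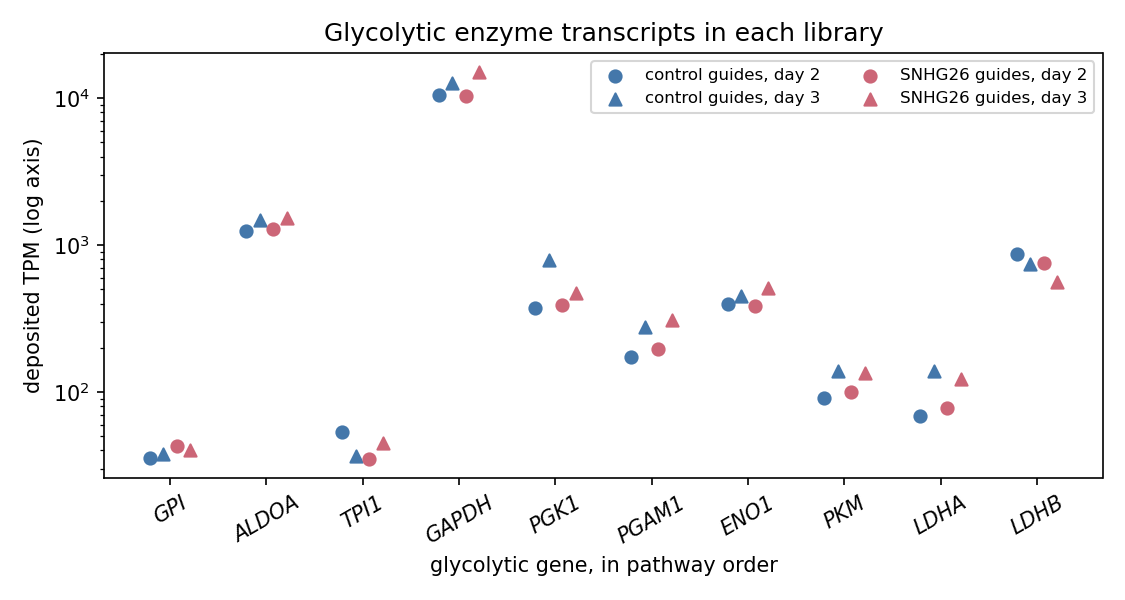
TPM of each of the 10 genes (log axis) in each of the 4 libraries, by guide arm (colour) and day (marker). The levels run from 35.1 TPM for TPI1 to 15006 TPM for GAPDH, and the spread within a gene is small against the spread between genes.

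The comparison of guide arms asks whether these mRNAs differed with the SNHG26 guides. No member passed the test: limma with Benjamini-Hochberg adjustment over 8274 genes gave adjusted p from 0.935 to 0.998, and 0 of 10 had an unadjusted p under 0.05. Over all genes limma called 0% at an adjusted p under 0.05 and 4.07% had an unadjusted p under 0.05. The median log2 change over the 10 genes, SNHG26 guides minus control, was 0.04 (-0.042 with quantile normalization), and the median over all genes tested was also 0.04. Among the 1145 genes averaging 50 TPM or more the median was 0.11, with 69.3% above 0. Of the 10, 6 were above 0 and 4 below. In bulk libraries, fewer cells of a type and less RNA per cell cannot be told apart.

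In the upper part of the pathway, GPI, the isomerase of glucose 6-phosphate, measured 42.7 TPM (day 2) and 40.4 TPM (day 3) with SNHG26 guides against 35.5 TPM and 37.5 TPM with control guides. GPI was the only one of the 10 whose arms did not overlap, both SNHG26-guide libraries being higher, as they were for 16.1% of all genes. Its log2 change was 0.18 (SE 0.23, limma), with a 95% interval from -0.44 to 0.81. ALDOA, the aldolase, measured 1283 and 1527 TPM with SNHG26 guides and 1248 and 1476 TPM with control guides. TPI1, which interconverts the triose phosphates, measured 35.1 and 45.0 TPM against 53.7 and 36.7 TPM. The SNHG26-guide library was lower on day 2 and higher on day 3 for TPI1, a crossed difference of 0.89 on the log2 scale, and counting error alone gives a day change of this gene an SE of at least 0.44 with SNHG26 guides and 0.43 with control guides.

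In the lower part, GAPDH, which oxidises glyceraldehyde 3-phosphate, measured 10412 and 15006 TPM with SNHG26 guides and 10578 and 12633 TPM with control guides. PGK1, the first ATP-forming step, measured 391.6 and 469.3 TPM with SNHG26 guides and 369.9 and 788.6 TPM with control guides. The control library of day 3 stood apart for PGK1, and the arm difference of -0.33 (SE 0.41, limma) became 0.21 without it. PGAM1, the phosphoglycerate mutase, gave 195.0 and 307.0 TPM against 174.2 and 277.0 TPM. ENO1, the enolase, gave 386.4 and 508.2 TPM against 396.8 and 447.2 TPM, and PKM, the pyruvate kinase, 99.9 and 134.7 TPM against 91.5 and 138.4 TPM. Arms overlapped for all 5 genes.

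Of the lactate dehydrogenase subunits, LDHA measured 77.5 and 123.4 TPM with SNHG26 guides and 68.9 and 139.8 TPM with control guides, and the arm difference was -0.0053 (SE 0.46, limma; 95% interval -1.27 to 1.26). LDHB measured 750.5 and 560.6 TPM with SNHG26 guides against 873.1 and 748.2 TPM. LDHB was lower with SNHG26 guides on each day, by -0.22 (day 2) and -0.42 (day 3) on the log2 scale, but its arms overlapped. It had the lowest unadjusted p of the 10, with a log2 change of -0.32 (SE 0.20; 95% interval -0.87 to 0.24) and an adjusted p = 0.935 (limma, Benjamini-Hochberg). That change was -0.53 without the SNHG26-guide library of day 2 and -0.11 without the SNHG26-guide library of day 3. In the test of whether the guide change differed between days, limma called 0.0967% of all genes and none of the 10, and 3.52% of all genes but again none of the 10 had an unadjusted p under 0.05. With 1 library per arm and day the error of this contrast is made from the guide and day differences themselves, so a gene that differs between days is hardly callable, and the lack of a call does not show that the arms were alike.

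The comparison of days asks how the same genes stood after 3 days of doxycycline against 2. The libraries of day 3 lay above those of day 2, with no overlap, for 7 of the 10 genes: ALDOA, GAPDH, PGK1, PGAM1, ENO1, PKM and LDHA. The background for this was 17.1% of all genes tested, or 22.1% of the 1145 genes averaging 50 TPM or more. LDHB, as the only member, was lower in both libraries of day 3, against 18.4% of all genes and 18.9% of those averaging 50 TPM or more. GPI and TPI1 overlapped. The median log2 change over the 10 genes was 0.34, with 0.37 in the SNHG26-guide arm and 0.25 in the control arm, and the median over all genes was 0.01. Among the 1145 more abundant genes the median day change was 0.12 with SNHG26 guides and -0.06 with control guides. Read totals were also higher on day 3 in both arms. Of the 8 primed markers tested, 2 were higher (POU5F1 and SOX2) and 2 lower (DNMT3B and TERF1) in both libraries of day 3. The median log2 change of the 8 was -0.16. Their summed level (SNHG26 guides, then control) was 1644 and 1777 TPM on day 2 and 1780 and 1884 TPM on day 3. Most of that sum was POU5F1, at 1050 and 1068 TPM on day 2 and 1212 and 1175 TPM on day 3. The summed markers of differentiated cells, nearly all NES, stood at 24.5 and 23.2 TPM on day 2 and at 21.2 and 19.1 TPM on day 3. Their part in the day differences was not tested.

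No member passed the test at an adjusted p under 0.05, as 0.0363% of all genes (3 of 8274) did. LDHA came closest, with a log2 change of 0.84 (SE 0.18; 95% interval 0.34 to 1.34), an unadjusted p = 0.0100 and an adjusted p = 0.449 (limma, Benjamini-Hochberg). PGAM1 followed with 0.66 (SE 0.15; unadjusted p = 0.0131, limma), GAPDH with 0.39 (SE 0.11; unadjusted p = 0.0213) and PKM with 0.51 (SE 0.16; unadjusted p = 0.0334). These 4 were the members with an unadjusted p under 0.05, a level that 6.61% of all genes reached, or 3.44% with day 3 higher. PGK1 showed 0.68 (SE 0.29), ENO1 0.28 (SE 0.13), ALDOA 0.25 (SE 0.09) and LDHB -0.32 (SE 0.20), each with a 95% interval that held 0. The LDHB value was -0.11 without the SNHG26-guide library of day 3 and -0.53 without the control library of day 3. GPI showed -0.00022 (SE 0.21) and TPI1 -0.10 (SE 0.30).

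**Figure D2:**
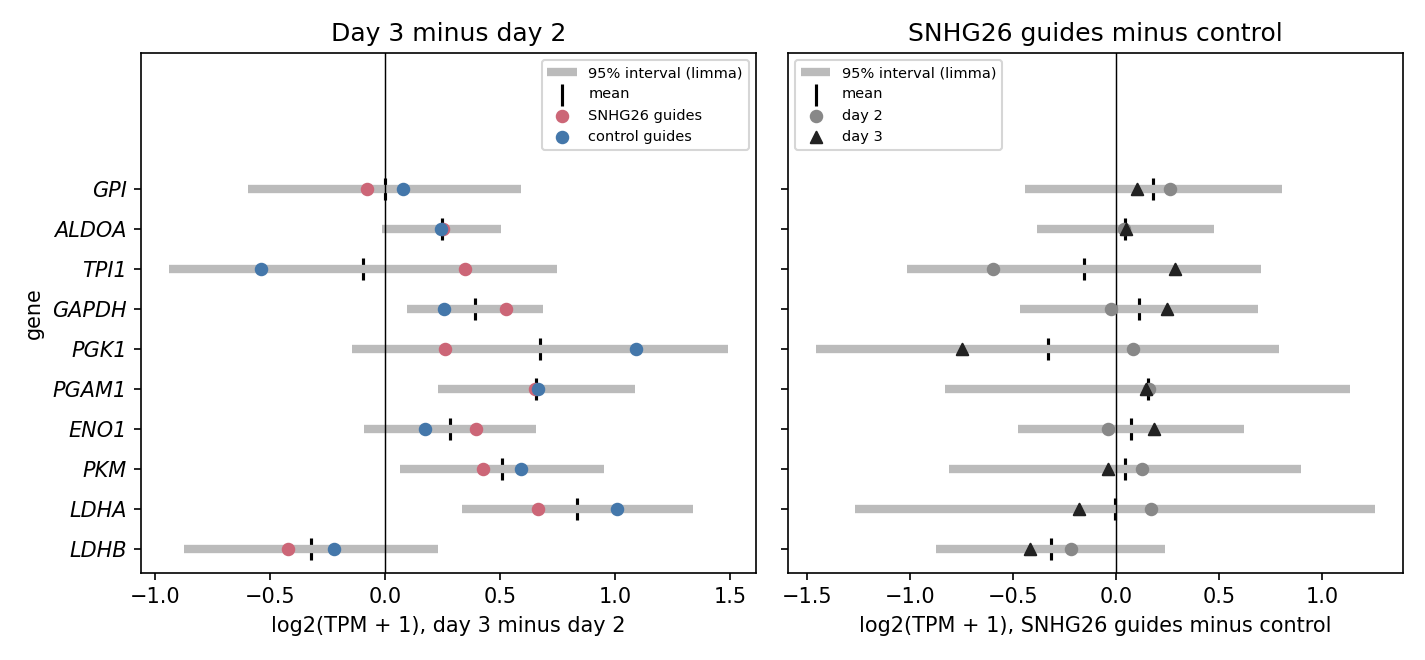
Log2 changes of each gene on the log2(TPM + 1) scale: left, day 3 minus day 2 in each guide arm; right, SNHG26 guides minus control on each day. Ticks are means and grey bars the 95% intervals of limma; on the left LDHA stands at 0.84 and LDHB at -0.32, and on the right every bar crosses 0.

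The size of the day difference varied between the arms. LDHA was 1.59-fold higher on day 3 with SNHG26 guides and 2.03-fold higher with control guides, and PGAM1 was 1.57-fold and 1.59-fold higher. PGK1 was 1.20-fold higher with SNHG26 guides and 2.13-fold with control guides, so its mean rested on the control library of day 3: without that library the log2 change was 0.30. GAPDH was 1.44-fold and 1.19-fold higher, ENO1 1.32-fold and 1.13-fold, PKM 1.35-fold and 1.51-fold, and ALDOA 1.19-fold and 1.18-fold. LDHB was 0.747-fold and 0.857-fold. GPI and TPI1 had opposite day orders in the arms, 0.946-fold and 1.06-fold for GPI and 1.28-fold and 0.682-fold for TPI1.

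**Figure D3:**
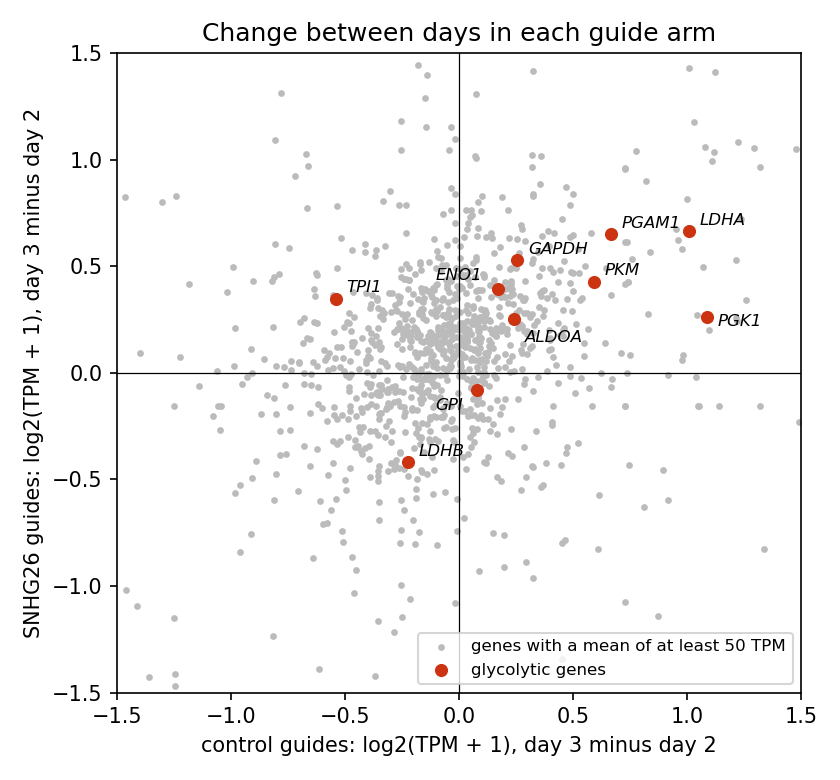
Log2 change from day 2 to day 3 with control guides (horizontal axis) against that with SNHG26 guides (vertical axis) for the 1145 genes averaging 50 TPM or more in grey, of which 56 lie outside the axes, and the 10 glycolytic genes in colour. The 7 genes above 0 on both axes include LDHA and PGAM1, LDHB lies below 0 on both, and GPI and TPI1 are split.

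LDHA and LDHB differed in opposite directions between the days in both arms. The ratio of LDHA TPM to LDHB TPM was 0.103 on day 2 and 0.220 on day 3 with SNHG26 guides, and 0.0789 and 0.187 with control guides, so the ratio was 2.13-fold and 2.37-fold higher on day 3. LDHA made up 9.36% and 18.0% of the summed TPM of the pair with SNHG26 guides, and 7.31% and 15.7% with control guides. Both day 3 libraries were above both day 2 libraries. With 2 libraries a day no p under 0.333 can be reached, and an exact permutation test (two-sided) returned p = 0.333. Per spliced length the ratio was 0.0426, 0.0908, 0.0325 and 0.0771 in the same order. This multiplies the ratio of every library by the same factor, so the order of the days could not change.

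The summed TPM of the 10 genes was 13674 (day 2) and 18721 (day 3) with SNHG26 guides and 13889 and 16723 with control guides, or 1.43%, 1.96%, 1.45% and 1.75% of the listed TPM. GAPDH made up 75.5% to 80.2% of that sum. The sum was 1.37-fold higher on day 3 with SNHG26 guides and 1.20-fold with control guides. Without GAPDH it was 1.14-fold and 1.24-fold higher, so the arm with the greater day difference depended on GAPDH. The order without GAPDH rested on PGK1, and it did not hold with PGK1 left out as well. That gene was at 369.9 and 788.6 TPM with control guides, against 391.6 and 469.3 TPM with SNHG26 guides.

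**Figure D4:**
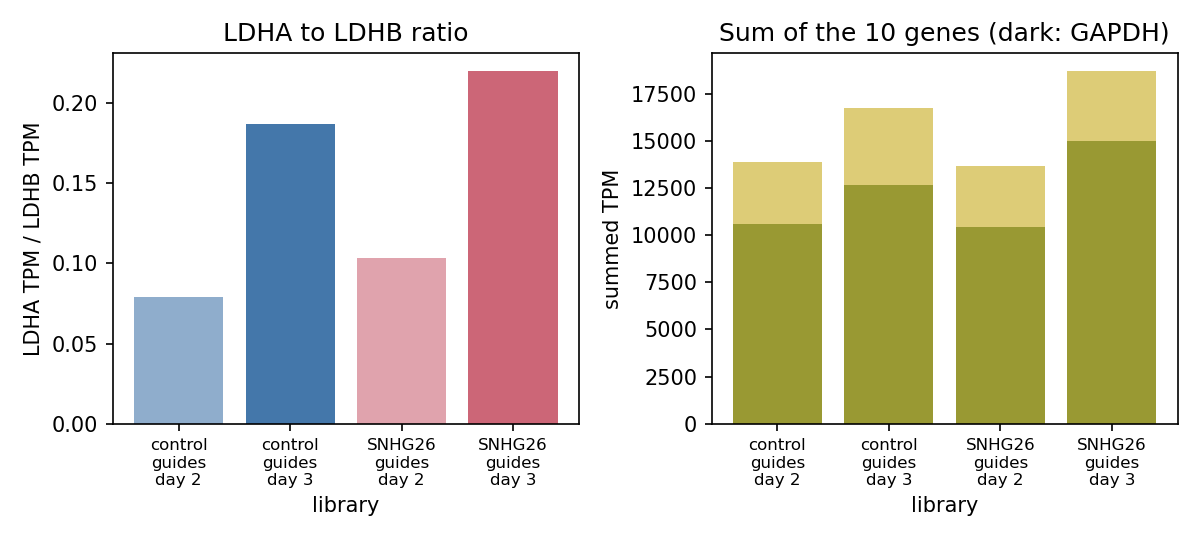
Left, the ratio of LDHA TPM to LDHB TPM in each library; right, the summed TPM of the 10 genes, with GAPDH in dark. The ratio is 0.187 and 0.220 on day 3 against 0.0789 and 0.103 on day 2, and the sum runs from 13674 to 18721 TPM.

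The other genes of the pathway were described from lists fixed by function, and limma called none of their members between arms or between days. Their counts of genes higher or lower in both libraries of day 3 are to be read against 17.1% higher and 18.4% lower among all genes. Among the kinases and phosphatases that gate the pathway, 8 of 11 listed were tested, and 5 of the 8 were higher in both libraries of day 3 and 0 lower, with a median log2 change of 0.45. PFKL, a liver-type phosphofructokinase, stood at 3.74 and 8.13 TPM (days 2 and 3, SNHG26 guides) and at 6.17 and 12.8 TPM (control guides). PFKP, the platelet type, stood at 3.67 and 6.46 TPM against 3.83 and 4.64 TPM, and PFKM, the muscle type, at 2.76 and 2.95 TPM against 3.39 and 2.10 TPM. Days overlapped for PFKM but not for PFKP. HK2, a hexokinase, had a mean of 0.619 TPM and was not tested.

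Of the glucose and lactate carriers, 5 of 7 listed were tested, and 4 of the 5 were higher in both libraries of day 3, with a median of 0.99. SLC2A3, a glucose carrier, measured 10.7 and 29.9 TPM with SNHG26 guides and 18.2 and 27.8 TPM with control guides (unadjusted p = 0.042, adjusted p = 0.730, limma), the only carrier with an unadjusted p under 0.05. SLC2A1, the main glucose carrier of many cells, measured 14.0 and 18.8 TPM with SNHG26 guides and 14.1 and 49.6 TPM with control guides. The control library of day 3 was thus the highest for SLC2A1, PGK1 and LDHA alike. BSG, the chaperone of the lactate carriers, stood at 154 to 178 TPM, and SLC16A3, a lactate exporter, was listed at 0 in every library.

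Isozymes are encoded by separate genes for the same step. Of 6 isozymes tested, 1 was higher and 2 lower in both libraries of day 3, near the shares among all genes. ALDOC, the brain-type aldolase, measured 99.4 and 56.9 TPM with SNHG26 guides and 67.9 and 47.4 TPM with control guides, and ENO2, the neuronal enolase, 31.0 and 51.9 TPM against 48.5 and 67.6 TPM. The day order was thus opposite for these 2 isozymes. Of 9 genes of pyruvate entry into mitochondria, 4 were higher and 1 lower in both libraries of day 3. PDHB, a subunit of pyruvate dehydrogenase and the most abundant of them in TPM, measured 117.9 and 85.7 TPM with SNHG26 guides and 106.3 and 94.7 TPM with control guides, lower on day 3. PDHA1, another subunit, measured 27.3 and 43.3 TPM against 61.7 and 43.5 TPM, and DLD, a shared subunit, 8.10 and 5.12 TPM against 14.2 and 8.21 TPM. PDK2, which inhibits the complex, measured 1.76 and 4.13 TPM against 1.94 and 7.63 TPM (unadjusted p = 0.041, adjusted p = 0.719, limma), higher on day 3. At most about 4.21 reads stood behind PDK2 in each library of day 2. Of 14 genes of the citric acid cycle, 4 were higher and 1 lower, with a median of 0.12. Of 7 genes of the pentose phosphate pathway, 0 were higher and 1 lower, with a median of -0.20. Of 2 genes of gluconeogenesis, 1 was higher and 1 lower. Of 5 regulators, 0 were higher and 1 lower, the latter on at most about 4.00 reads in any library. HIF1A was at 5.02 and 4.84 TPM with SNHG26 guides and at 22.8 and 5.51 TPM with control guides. MYC was at 15.6 and 17.7 TPM against 10.5 and 10.7 TPM. Days overlapped for HIF1A and for MYC.

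Processed pseudogenes can take reads from their parent genes. The table listed 9 of the members' pseudogenes, 1 of them at 0 everywhere, and no library had more than 5 reads on any. They summed to 6 to 13 reads a library and to 0.244% to 0.463% of the members' summed TPM.

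Among 1123 other genes averaging 50 TPM or more, those nearest in pattern to the members' summed TPM were SEC61G, SMIM30 and STIP1. Their root mean square log2 distances over the 4 libraries were 0.02, 0.03 and 0.04. GAPDH made up 75.5% to 80.2% of that sum, so the likeness is mostly to GAPDH. SEC61G, a subunit of the translocon of the endoplasmic reticulum, measured 244.5 and 329.7 TPM with SNHG26 guides and 250.1 and 293.1 TPM with control guides. STIP1, a co-chaperone, measured 50.8 and 75.6 TPM against 53.7 and 64.6 TPM. Over 4 libraries many genes can lie this near, and the likeness carries no test.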

How the data were processed

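Poly(A) RNA of H9 cells was turned into cDNA, amplified by PCR and sequenced on a nanopore instrument, per the labels' protocols. The authors deposited TPM values per gene, 1 column per library. The submitters' processing notes name minimap2 2.24-r1122 and GRCh38; the counting tool and annotation are not given in the sources used here. In every library the 13 mitochondrial mRNAs fitted a fixed TPM per read and length, and this gave whole reads over the genomic span (within 0.0001 read) for 20.6% of the 13840 genes with a value. Because most genes did not come out whole, no count test was run. For the others, the full listed span gives an approximate upper bound on reads, and GENCODE principal transcripts give an estimate. The bound is not strict: for PGAM1 the principal transcript spans 7282 bases against a listed 7254, so its estimate lies slightly above the bound. PCR reads carry no molecular identifiers, so counting errors cover counting only.

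The analysis used log2(TPM + 1), on which changes of low genes come out too small. The 8274 genes averaging 1 TPM or more entered limma 3.58.1 (R 4.3.3; lmFit and eBayes with a trend) over all 4 libraries with no block, and p-values adjusted by Benjamini-Hochberg were held against 0.05. A crossed contrast tested whether the guide change differed between days. On simulated data the fit recovered most changed genes, but a larger share of its calls was false than the adjustment allows, so the few calls over all genes are uncertain. Libraries of the same day share a number across arms. Their deviations from the arm means correlated at 0.0464 across genes, so the replicate block was an alternative. The unblocked arm SE of a gene that differs between days holds that difference. With the block it was smaller for every member but GPI and TPI1. For LDHA it went from 0.46 to 0.23, and for LDHB from 0.20 to 0.14 (limma with the block, unadjusted p = 0.093, adjusted p = 0.908). All 10 members were named, and of each pathway list up to 4 genes of highest mean TPM; HK2, SLC16A3 and ZIC2 were added after their values were seen, and some genes of the lists are not reported here. The members and lists were chosen with earlier results of these data known. Likeness was the root mean square difference of centred log2 values. Alternatives were the pseudocount, the filter, the scaling, eBayes without a trend, the block and leaving out each library.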

Additional observations from a re-analysis of the deposited data

How the results depend on the processing

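No member passed the threshold in any setting run: the lowest adjusted p of a member was 0.694 between arms, 0.0761 between days and 0.888 for the crossed contrast with all libraries, and 0.607 between arms and 0.187 between days when a library was left out (limma, Benjamini-Hochberg). The 0.0761 came from a filter of at least 50 TPM with the replicate block, a combination chosen after seeing the data. The day changes of ALDOA, GAPDH, PGK1, PGAM1, ENO1, PKM, LDHA and LDHB kept their sign in every setting. With 1 library per arm and day, an arm or day left with 1 library is assumed to vary like the other.

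Over all genes, 3 were called between days, but 0 under quantile normalization, at pseudocounts of 0.1 and 5, without a filter, without a trend, under the replicate block, at 50 TPM or leaving out any library, and 35 with the replicate block at 50 TPM. Between arms 0 were called and 14 with the replicate block at 50 TPM. The crossed contrast called 8 genes. It called 14 at a pseudocount of 0.1, 13 among genes averaging 5 TPM or more, and 0 at a pseudocount of 5, without a filter, without a trend, under the replicate block or at 50 TPM.

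The members' median between arms, 0.04, was -0.042 with quantile normalization, -0.00696 with median ratio scaling and -0.16 to 0.22 leaving out a library. Between days, 0.34, it was 0.45 at 50 TPM with and without the replicate block (8 members) and 0.24 to 0.35 leaving out a library. The arm changes of ALDOA (-0.00651, median ratio), GAPDH (-0.0599, quantile) and PKM (-0.0281, quantile; -0.00742, median ratio), and the day change of GPI (0.00927, quantile; 0.00058, median ratio), crossed 0; the cause was not tested. Leaving out a library, arm changes ran from -0.0809 to 0.17 for ALDOA, -0.43 to 0.11 for TPI1, -0.15 to 0.38 for GAPDH, -0.88 to 0.21 for PGK1, -0.18 to 0.49 for PGAM1, -0.12 to 0.27 for ENO1, -0.25 to 0.34 for PKM, -0.51 to 0.50 for LDHA and -0.53 to -0.11 for LDHB, and day changes from -0.13 to 0.13 for GPI, -0.40 to 0.20 for TPI1 and -0.53 to -0.11 for LDHB. Per spliced length the rank of LDHB was 2, of ALDOA 3, of ENO1 4, of PGK1 5, of PKM 6, of PGAM1 7, of GPI 8, of LDHA 9 and of TPI1 10.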

Other observations

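DPPA4, a marker of primed stem cells, measured 210 and 183 TPM with SNHG26 guides and 315 and 266 TPM with control guides, both SNHG26-guide libraries being lower (unadjusted p = 0.039, adjusted p = 0.935, limma with Benjamini-Hochberg adjustment). It was singled out after its values were seen: of the 8 primed markers tested, 4 were above 0 and 4 below between arms, with a median of -0.06, and 2 (DPPA4 and L1TD1) were lower in both SNHG26-guide libraries, as were 13.2% of all genes.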
